A study of Mus musculus with 6 samples.

Results

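The genes described are 31 genes of the G2 phase and of mitosis, the part of the cell cycle in which a cell that has copied its DNA divides. They were chosen by gene symbol as known genes of this phase, with earlier results of these data known, and all 31 were found by gene symbol among 56362 features counted in each library. RNA came from the intestine of BALB/c mice, 3 wild type mice and 3 mice labelled as knockouts of FcεRIα, the subunit through which the IgE receptor of mast cells and basophils holds its antibody, with 1 library per mouse. The title of each library in both groups carries the letters DSS, which the labels leave unexplained, so any treatment behind them is shared by both groups and was not compared here. The sources used here do not give age, sex, gut segment or the kind of deletion, and the series title names gut epithelial cells where the tissue label names intestine. The question put to these genes is whether the gut of knockout mice differed from that of wild type mice in its RNA of dividing cells.

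Entry into mitosis is driven by the kinase Cdk1 bound to cyclin A or cyclin B. Polo and Aurora kinases build the spindle, and kinetochores attach each chromosome to it. The checkpoint kinases hold the cell until all chromosomes are attached, after which Cdc20 and the ubiquitin-conjugating enzyme Ube2c help the anaphase promoting complex to mark the cyclins for destruction, and the cell is cut apart by cytokinesis. In the intestine, dividing cells are mainly the stem cells and transit amplifying cells of the crypts, joined by activated lymphocytes and, after injury, by stromal cells. In bulk RNA from a tissue, fewer cells of a type and less RNA per cell cannot be told apart.

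Many genes of this programme share short promoter elements, a feature the choice of the 31 genes did not use. The genes whose stretches are printed below were chosen by motif content and role, not by fold change. The elements seen in the printed stretches thus follow from that choice. Of the 31 genes, 27 were matched to RefSeq promoter windows on GRCm38.p6, which run from 250 bases before the start of the gene to 50 after it. Aurkb, Ccna2, Kif20a and Tpx2 have no entry there. The letters TTTGAA or TTCGAA, forms of the cell cycle genes homology region to which MuvB complexes bind, stood on either strand in 23 of the 27 genes, or 85.2%, against 21.7% of the 27025 genes of the table. CCAAT, the box bound by the factor NF-Y, stood on either strand in 22, or 81.5%, against 41.1% of all genes. Both elements lay in 1 window in 20 of the 27 genes, or 74.1%, against 8.61% of all. Within 50 bases of the start on either side, a span chosen after the positions were seen, the first element stood in 21 genes, or 77.8%, against 6.12% of all.

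The 150 bases just before the RefSeq start are printed 5′ to 3′ on the strand of the gene. Matches to these letters on either strand are in capitals (ATTGG is CCAAT and TTCAAA is TTTGAA on the other strand). GENCODE starts, used for gene positions below, lie upstream of the RefSeq start for Cdk1, Cdc20, Ube2c, Prc1 and Ccnb1. Part of each of their stretches thus lies inside the GENCODE gene. Cdk1 (chr10:69352913-69353062, minus strand), Cdc20 (chr4:118437344-118437493, minus strand), Ube2c (chr2:164769779-164769928, plus strand) and Prc1 (chr7:80294326-80294475, plus strand, the downstream one of its 2 windows) show both elements close to the start. Mki67 (chr7:135716380-135716529, minus strand) and Top2a (chr11:99024190-99024339, minus strand) differ in layout, since the matches of Mki67 all lie at -98 or farther from the start while Top2a has 1 TTCAAA at -23 and its others farther out. Ccnb1 (chr13:100786487-100786636, minus strand) has 2 CCAAT boxes and no TTTGAA or TTCGAA in its window. The 4 genes whose windows lack TTTGAA and TTCGAA are Birc5, Ccnb1, Cenpe and Nusap1. A match describes the letters only, not a binding site.
Cdk1: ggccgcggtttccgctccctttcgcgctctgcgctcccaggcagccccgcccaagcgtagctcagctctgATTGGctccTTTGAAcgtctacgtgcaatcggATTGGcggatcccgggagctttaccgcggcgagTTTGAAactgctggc
Cdc20: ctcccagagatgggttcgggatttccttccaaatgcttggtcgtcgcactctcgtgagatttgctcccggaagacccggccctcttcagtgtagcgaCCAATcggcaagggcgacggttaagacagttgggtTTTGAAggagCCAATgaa
Ube2c: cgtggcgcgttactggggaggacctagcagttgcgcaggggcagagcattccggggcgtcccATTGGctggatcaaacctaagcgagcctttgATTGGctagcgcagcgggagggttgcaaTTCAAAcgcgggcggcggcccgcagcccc
Prc1: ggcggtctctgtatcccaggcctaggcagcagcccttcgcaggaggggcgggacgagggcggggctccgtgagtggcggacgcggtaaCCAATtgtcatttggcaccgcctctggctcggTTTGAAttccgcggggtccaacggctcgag
Mki67: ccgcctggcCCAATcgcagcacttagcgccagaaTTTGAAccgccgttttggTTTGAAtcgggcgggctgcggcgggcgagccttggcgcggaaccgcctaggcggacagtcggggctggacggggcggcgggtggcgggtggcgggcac
Top2a: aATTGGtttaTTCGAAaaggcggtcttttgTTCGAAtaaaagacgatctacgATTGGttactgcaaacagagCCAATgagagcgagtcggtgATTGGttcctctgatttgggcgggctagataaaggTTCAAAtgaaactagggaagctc
Ccnb1: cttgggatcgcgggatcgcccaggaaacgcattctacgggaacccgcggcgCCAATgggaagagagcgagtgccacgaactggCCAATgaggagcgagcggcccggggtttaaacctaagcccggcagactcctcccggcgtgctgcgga

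Library totals ran from 19031833 to 23092382 counts. The mitosis genes were well covered, with 68 to 6431 counts per gene and library, and all 31 passed the filter on low counts that left 16732 genes. Fcer1a, the targeted gene, had 0, 10 and 18 counts in wild type libraries 1 to 3 against 1, 0 and 0 in knockout libraries, so this gene could not check the label of wild type library 1. That library stood apart in several other ways. The mitochondrial gene mt-Co1 took 6.83% of its counts against 1.45% to 2.28% in the others, and its TMM factor was 0.824 against 0.963 to 1.162. It differed from the other wild type libraries by a chi-square per degree of freedom of 236.7 and 247.4, where the other pairs within a group gave 33.8 to 65.6. Results without it are given below. The label of intestine was met by all 14 epithelial markers tested (Epcam, Vil1, Cdh17 and others), with a summed level of 14750 to 29900 CPM, counts brought to a common library size with edgeR's TMM factors. Fibroblast markers were present too, at a summed 473.5 to 4222 CPM. In the p-values below, replicates are mice.

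Each of the 31 genes had a lower mean fitted level in knockout than in wild type gut, and no single gene passed the test. The median log2 fold change, knockout minus wild type, was -0.50 over the 31 genes and -0.05 over all genes tested, and single genes ran from -0.88 for Cenpf to -0.21 for Top2a. Over all genes 55.8% had a fold change below 0. By edgeR's quasi-likelihood test with Benjamini-Hochberg adjustment, 0 of the 31 passed at an adjusted p under 0.05, as did 0 of all 16732 genes, a share of 0%, of which 1145 had an unadjusted p under 0.05. The smallest adjusted p of the 31 was 0.717. Unadjusted, 2 of the 31, Nusap1 and Cenpf, had a p under 0.05 with a lower level, where 2.30% of all genes did. DESeq2 and limma-voom also called 0 of the 31, against 0.824% and 0.0120% of all genes. The 31 genes share mice and vary together, so that 31 of 31 counts as 1 pattern seen in 6 mice and not as 31 separate observations.

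**Figure D1:**
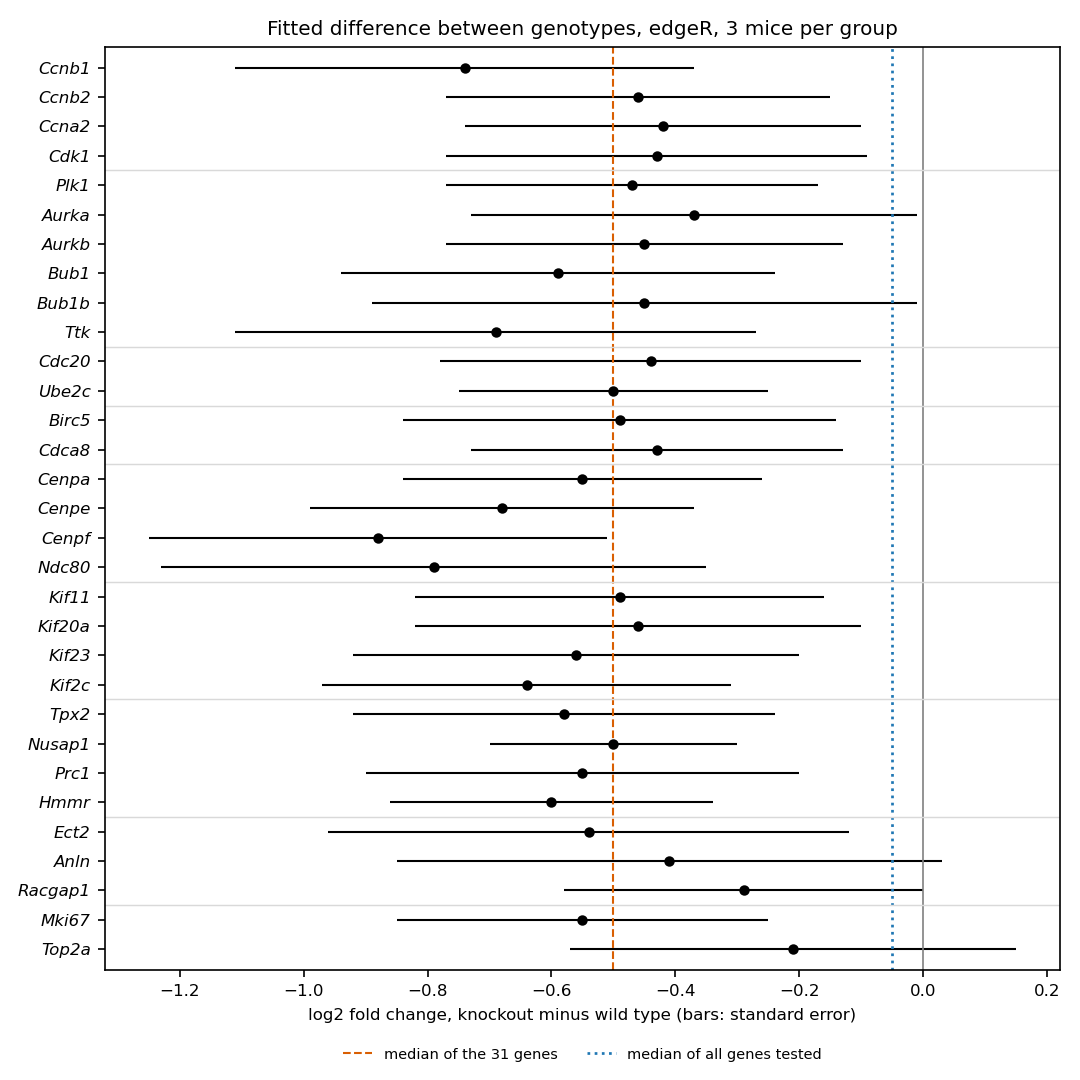
Fitted log2 fold change (x axis, knockout minus wild type) of each of the 31 genes (y axis, grouped by role), with bars of 1 standard error from edgeR over 3 mice per group. All points lie left of 0, and the dashed line marks their median of -0.50 and the dotted line the median of all genes tested, -0.05.

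The spread between mice of a group was nearly as large as the difference between the groups. The mean of the 31 genes on a log2(CPM + 0.5) scale, taken relative to the 6-library mean, came to -0.16, 0.67 and 0.27 in wild type libraries 1 to 3 against -0.32, -0.70 and 0.24 in knockout libraries 1, 2 and 3. Wild type library 2 was thus the highest and knockout library 2 the lowest, while knockout library 3 lay above wild type library 1. The group means of these values were 0.26 ± 0.41 (SD, n = 3) in wild type against -0.26 ± 0.47 in knockout gut, a difference of -0.52 against a pooled SD within groups of 0.44. For 12 of the 31 genes taken singly the difference was smaller than the SD within groups. Summed, the 31 genes were at 1017, 1800 and 1343 CPM in wild type against 929.4, 698.9 and 1364 CPM in knockout libraries. In this sum wild type libraries 1 and 3 lay inside the knockout range. Knockout library 3 was the only knockout library inside the wild type range.

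The same order of mice ran through nearly every gene. Wild type library 2 was the highest of the 6 for 30 of the 31 genes, where it was the highest for 24.1% of all genes, and the exception was Ccnb2. Knockout library 2 was the lowest for 28 of 31, against 21.5% of all genes, the others being Nusap1, Prc1 and Anln. In 30 of the 31 genes wild type library 2 lay above every knockout library, and in 30 knockout library 2 lay below every wild type library. The value of wild type library 1 was inside the range of knockout gut for 26 genes and below knockout library 3 for 27. Knockout library 3 lay above wild type library 3 for 13 of the 31 genes. The highest library exceeded the lowest by 1.87-fold for Nusap1 to 4.70-fold for Ndc80, with a median of 2.63-fold against 2.13-fold over all genes tested.

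**Figure D2:**
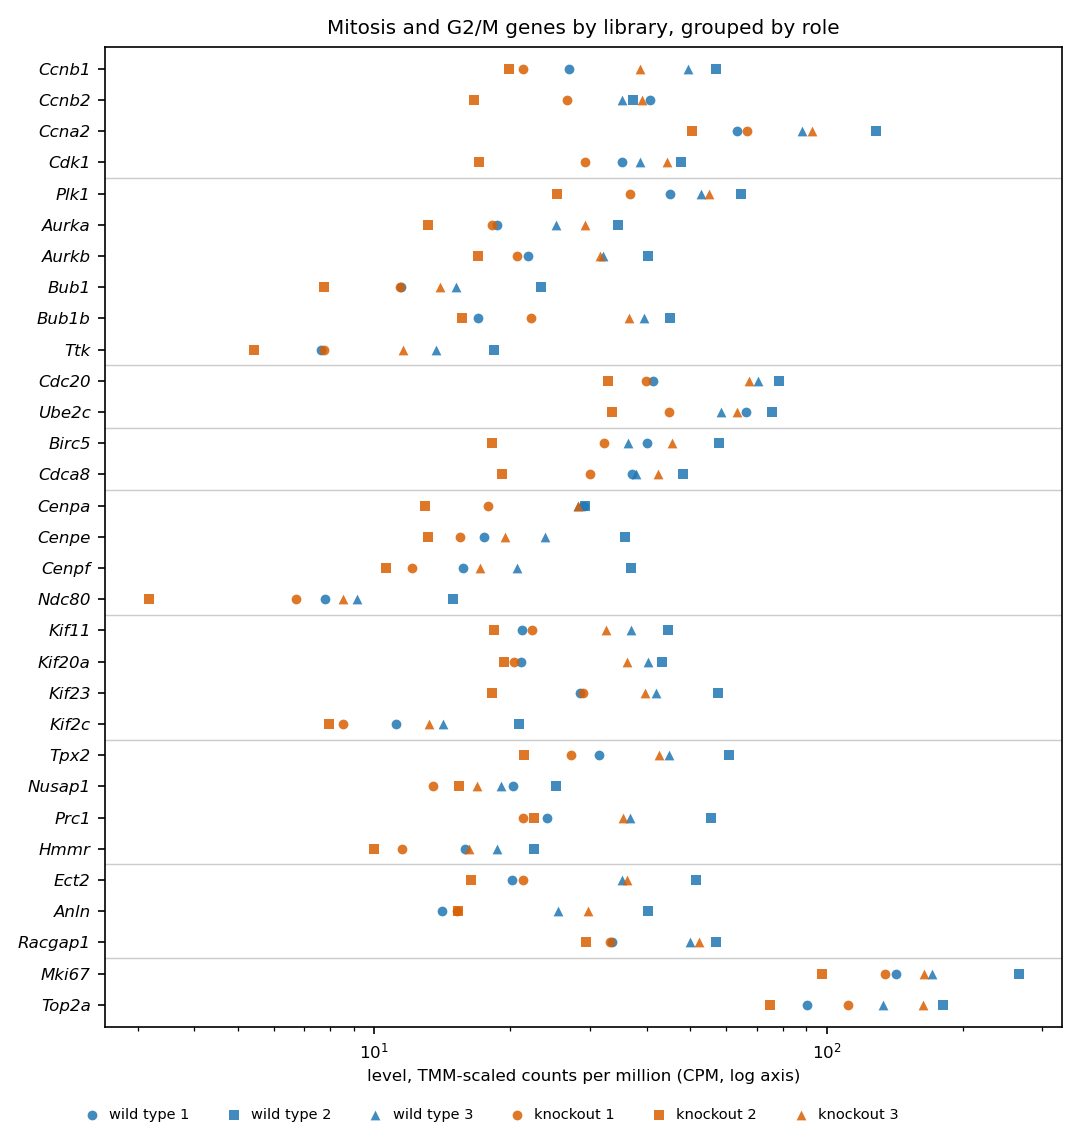
Level of each of the 31 genes in every library, in TMM-scaled CPM on a log x axis, with wild type in blue and knockout in orange and a marker shape for each library number. Wild type library 2 is the rightmost point for 30 genes and knockout library 2 the leftmost for 28, with wild type library 1 and knockout library 3 lying among the points of the other genotype.

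The cyclins and their kinase differed in how wild type library 1 stood. Ccnb1, the cyclin B whose rise with Cdk1 triggers mitosis (chromosome 13, 100778650 to 100786570, GENCODE vM21 on GRCm38), was at 27.0, 57.0 and 49.4 CPM in wild type against 21.3, 19.9 and 38.7 CPM in knockout libraries, a log2 fold change of -0.74 (SE 0.37, adjusted p = 0.765). Only the value of wild type library 1 falls inside the knockout range. Ccnb2, the second cyclin B of dividing cells, was at 40.8, 37.3 and 35.2 CPM in wild type, a spread of 1.16-fold, and at 26.7, 16.6 and 39.2 CPM in knockout libraries (-0.46, SE 0.31). Here wild type library 1 was the highest of the 6 and knockout library 3 the one that overlapped. Cdk1, the kinase they bind (chromosome 10, 69335146 to 69352938), was at 35.3, 47.7 and 38.8 CPM against 29.2, 17.1 and 44.4 CPM (-0.43, SE 0.34). Ccna2, the cyclin A of S and G2 phase, was at 63.4, 128.9 and 88.0 CPM against 66.6, 50.3 and 92.8 CPM (-0.42, SE 0.32), with the groups interleaved.

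Among the mitotic kinases the fitted differences ran from -0.37 to -0.69, and none parted the groups. Plk1, the Polo kinase of mitotic entry and spindle assembly, was at 45.0, 64.7 and 52.7 CPM in wild type against 36.8, 25.4 and 55.0 CPM in knockout libraries (-0.47, SE 0.30). Aurka, the Aurora kinase of the spindle poles, was at 18.6, 34.6 and 25.3 CPM against 18.2, 13.2 and 29.2 CPM (-0.37, SE 0.36), so that knockout library 3 lay above 2 of the wild type libraries. The checkpoint kinases Ttk and Bub1 had the lowest CPM of this group. Ttk, which recruits the checkpoint to unattached kinetochores, was at 7.61, 18.4 and 13.7 CPM against 7.76, 5.41 and 11.6 CPM (-0.69, SE 0.42). Bub1, its scaffold kinase, differed by -0.59 (SE 0.35) and Bub1b, which encodes the checkpoint inhibitor BubR1, by -0.45 (SE 0.44). For Ttk and Bub1b, wild type library 1 was the second lowest of the 6 libraries, after knockout library 2.

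The chromosomal passenger complex, which corrects faulty attachments and later directs cleavage, is represented by its kinase Aurkb and by Birc5 and Cdca8, the survivin and borealin subunits. Aurkb was at 21.9, 40.3 and 32.1 CPM in wild type against 20.7, 17.0 and 31.6 CPM in knockout libraries (-0.45, SE 0.32). Birc5 was at 40.2, 57.9 and 36.5 CPM against 32.2, 18.3 and 45.6 CPM (-0.49, SE 0.35). Cdca8 was at 37.2, 48.2 and 38.0 CPM against 29.9, 19.2 and 42.4 CPM (-0.43, SE 0.30). The 3 subunits thus had close fitted differences, each with an adjusted p of 0.808 to 0.819, and in each knockout library 2 was the lowest library. Cdc20, the activator of the anaphase promoting complex, was at 41.4, 78.6 and 70.7 CPM against 39.9, 32.9 and 67.3 CPM (-0.44, SE 0.34). Its partner enzyme Ube2c was at 66.2, 75.9 and 58.5 CPM against 44.8, 33.5 and 63.3 CPM (-0.50, SE 0.25, adjusted p = 0.765), and only knockout library 3 reached the wild type range.

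Centromere and kinetochore genes held the largest fitted differences of the 31. Cenpf, a large protein of the outer kinetochore (chromosome 1, 189640606 to 189688086), was at 15.7, 36.9 and 20.7 CPM in wild type against 12.1, 10.6 and 17.1 CPM in knockout libraries, a log2 fold change of -0.88 (SE 0.37, unadjusted p = 0.0491, adjusted p = 0.726). Its overlap came from wild type library 1, which lay below knockout library 3. Ndc80, the subunit that grips microtubules, was at 7.79, 14.9 and 9.15 CPM against 6.72, 3.17 and 8.55 CPM (-0.79, SE 0.44), and Cenpe, the kinetochore motor, at 17.5, 35.9 and 23.9 CPM against 15.5, 13.2 and 19.5 CPM (-0.68, SE 0.31). Cenpa, the histone variant that marks the centromere, was the steadiest of all in wild type gut. It was at 29.1, 29.3 and 28.2 CPM there, a spread of 1.04-fold, and at 17.8, 12.9 and 28.3 CPM in knockout libraries (-0.55, SE 0.29), where knockout library 3 stood level with wild type.

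The kinesin motors had similar fitted differences. Kif2c, which depolymerises microtubules at centromeres, was at 11.2, 20.9 and 14.2 CPM in wild type against 8.51, 7.94 and 13.2 CPM in knockout libraries (-0.64, SE 0.33). Kif23, a motor of the central spindle, differed by -0.56 (SE 0.36), Kif11, which pushes the spindle poles apart, by -0.49 (SE 0.33), and Kif20a, which works in cytokinesis, by -0.46 (SE 0.36). In all 4 motors knockout library 2 was the lowest library and wild type library 2 the highest.

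Nusap1, a protein that bundles spindle microtubules (chromosome 2, 119618298 to 119651244), was the 1 gene of the 31 whose groups did not overlap, where 13.0% of all genes did not overlap in either direction and 4.27% did so with lower levels in knockout gut. It was at 20.3, 25.2 and 19.1 CPM in wild type against 13.5, 15.4 and 16.9 CPM in knockout libraries, a log2 fold change of -0.50 (SE 0.20, unadjusted p = 0.0414, adjusted p = 0.717). Its difference is no larger than the median of the 31, and its SE was the smallest of the 31. Exons of Nusap1 overlap those of Oip5 on the other strand, and since the strand setting of the counting is not given in the sources used here, reads of the 2 genes could be mixed. Hmmr, a spindle protein and hyaluronan receptor, was at 15.9, 22.5 and 18.7 CPM against 11.5, 9.99 and 16.2 CPM (-0.60, SE 0.26, adjusted p = 0.732). Tpx2, the activator of Aurka on the spindle, differed by -0.58 (SE 0.34) and Prc1, the bundler of the central spindle, by -0.55 (SE 0.35).

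Genes of cytokinesis and of chromosome structure had the smallest role medians, -0.41 and -0.38. Anln, the scaffold anillin of the cleavage ring, was at 14.2, 40.2 and 25.5 CPM in wild type, a spread of 2.84-fold, and at 15.3, 15.3 and 29.7 CPM in knockout libraries (-0.41, SE 0.44). Ect2, the activator of RhoA at the cleavage site, differed by -0.54 (SE 0.42) and its partner Racgap1 by -0.29 (SE 0.29). Mki67, the Ki-67 protein that coats mitotic chromosomes (chromosome 7, 135689784 to 135716361), was at 142.4, 265.6 and 171.1 CPM against 134.7, 97.5 and 164.4 CPM (-0.55, SE 0.30, adjusted p = 0.774). Top2a, which untangles sister DNA, was at 90.3, 180.8 and 133.3 CPM against 111.3, 75.1 and 163.6 CPM (-0.21, SE 0.36, adjusted p = 0.904). In Top2a wild type library 1 lay below 2 of the 3 knockout libraries, and without wild type library 2 the fold change was 0.06, while that of Anln was 0.02.

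Per length of transcript, the small regulators stood highest. On the scale of CPM per kilobase, with the gene length the authors deposited, Ube2c was at 69.1 ± 9.04 (SD, n = 3) in wild type against 48.8 ± 15.5 in knockout gut, ahead of Birc5 at 47.4 ± 12.1 and 33.8 ± 14.4 and of Cdc20 at 35.5 ± 10.9 and 26.1 ± 10.1. Cdca8, Cdk1 and Ccna2 followed at 32.5, 32.4 and 31.5 in wild type gut, and Mki67, the highest of the 31 by CPM alone, came at 19.2 ± 6.41 with a length of 10061 bases. The lowest were Cenpe at 3.25 ± 1.18 and Cenpf at 2.19 ± 0.995 in wild type gut. Each of the 30 pairs of neighbours in this order overlapped in their ranges over the 6 libraries, and in 6 of the 30 pairs the order was the same in all 6 libraries.

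Ratios between 2 of the 31 genes in the same library parted the groups for 40 of 465 pairs, or 8.60%. Taken singly, 13.0% of all genes tested parted the groups in either direction. Of the 465 ratios, 7 were chosen by role after the levels were seen, 4 of which are given in each library, and all are log2 ratios of CPM per kilobase. Among the 7, only the ratio of Ccnb1 to Ccna2 parted the groups. That of Ccnb1 to Ccna2 was -0.98, -0.92 and -0.58 in wild type against -1.39, -1.09 and -1.01 in knockout libraries, a mean of -0.83 ± 0.22 (SD, n = 3) against -1.16 ± 0.20, without overlap. That of Ccnb1 to Ccnb2 was -1.3, -0.09 and -0.21 against -1.03, -0.44 and -0.72. Wild type library 1 was thus low in cyclin B1 relative to cyclin B2, apart from the other two of its group. Cenpa to Cenpf gave 3.81, 2.59 and 3.37 against 3.48, 3.21 and 3.65, and Cdc20 to Ube2c gave -1.57, -0.84 and -0.62 against -1.06, -0.92 and -0.80. In these last 3 ratios the SD was 0.66, 0.62 and 0.50 in wild type against 0.29, 0.22 and 0.13 in knockout gut, and wild type library 1 lay at one end of the 6 libraries in each. Over the 7 ratios the SD was larger in wild type for 6, and Mki67 to Top2a was the exception at 0.15 against 0.19.

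Reads of some of these genes could be mixed with those of others. Exons of 9 of the 31 genes overlap another gene in GENCODE vM21, among them Ccna2 with Exosc9, Cdc20 with Elovl1, Kif20a with Cdc23, Prc1 with Rccd1 and Nusap1 with Oip5, all on the other strand. In a library Elovl1 reached 2574 counts, where Cdc20 itself had 664 to 1904, and Cdc23 reached 786, where Kif20a had 339 to 1045. Exosc9, Oip5 and Rccd1 had at most 559, 129 and 85 counts, and the partners of Plk1 and Cdca8 at most 376 and 316. The snoRNA gene inside Top2a and the partner of Ube2c, Tnnc2, had at most 0 and 2 counts in a library. Annotated pseudogenes of 2 members, Ccnb1-ps and Ccnb2-ps, held at most 2 and 16 counts.

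Other genes of mitosis gave a like picture. Of 63 further mitosis genes tested, 61 were lower in knockout gut on average (median log2 fold change -0.47), and 0 passed edgeR's test after adjustment over all genes. The groups did not overlap for 7, all lower, where 4.27% of all genes did so with lower levels and 13.0% in either direction. In either direction that count was 10 with RLE factors, upper quartile factors or DESeq2 (12.6%, 12.4% and 12.6% of all genes). It was 5 with no scaling factors (12.2%). With 1 library left out the median of the 63 ran from -0.29 without knockout library 2 to -0.76 without knockout library 3. Of the 63, 1 had an unadjusted p under 0.05 with a lower level (2.30% of all genes did). The 4 of smallest p were Depdc1a, a mitotic regulator, at -0.85 (SE 0.31, adjusted p = 0.710), Cit, the citron kinase of cytokinesis, at -0.62 (SE 0.27), Knl1, the kinetochore scaffold of the checkpoint, at -0.78 (SE 0.34), and Cep55, which brings the abscission machinery to the midbody, at -1.0 (SE 0.45). Depdc1a was at 7.11, 9.75 and 6.39 CPM in wild type against 4.45, 3.36 and 5.06 CPM in knockout libraries, without overlap. The 2 genes above 0 were Cdc25a, a phosphatase that also acts at the start of S phase, at 0.19 (SE 0.17) and Hjurp, the loader of Cenpa, at 0.01 (SE 0.22), the latter below 0 with RLE, upper quartile and no scaling factors. By library the mean of the 63 genes was -0.03, 0.52 and 0.20 in wild type against -0.21, -0.70 and 0.21 in knockout gut, the same order of mice within each group as in the 31.

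DNA replication genes, which act a phase earlier, were lower on average by less. All 37 tested had a fold change below 0 before rounding (median -0.33, highest 0.00), with 0 past edgeR's test, 0 with an unadjusted p under 0.05 and 0 without overlap between the groups. Among those of smallest p were the primase subunit gene Prim2 at -0.82 (SE 0.38), the polymerase gene Pold1 at -0.43 (SE 0.27) and the clamp loader gene Rfc4 at -0.48 (SE 0.34). Per library the 37 genes averaged -0.20, 0.53 and 0.20 in wild type against -0.04, -0.86 and 0.38 in knockout gut. Taken against these genes, the mean of the 31 mitosis genes stood 0.04, 0.14 and 0.07 higher in wild type libraries 1 to 3, whereas knockout libraries 1 to 3 gave -0.28, 0.16 and -0.14. Knockout library 2, the lowest in both lists, was thus not lower in mitosis genes than in replication genes, while knockout libraries 1 and 3 were. Without knockout library 2 or wild type library 2 the replication median was -0.05 and -0.10.

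The regulators of the programme had a median nearer 0. Of 18 transcription factors and repressors, 13 were lower on average (median -0.11, and 0.02 without wild type library 2) and 0 passed the test. Those of smallest p were the pocket proteins Rbl1 at 0.24 (SE 0.13) and Rbl2 at 0.33 (SE 0.23), which repress these promoters in resting cells, E2f2 at 0.23 (SE 0.17) and the MuvB subunit gene Lin9 at -0.40 (SE 0.30). Rbl1 was at 36.7, 32.6 and 33.5 CPM in wild type against 40.9, 40.6 and 39.4 CPM in knockout libraries, without overlap but with an adjusted p of 0.776. Foxm1 and Mybl2, the activators of mitosis genes, were named after their values were seen. Foxm1 was at 22.6, 40.02 and 28.1 CPM against 21.3, 16.2 and 33.7 CPM (-0.35, SE 0.33), in the same order of mice within each group as most of the 31, and Mybl2 at 10.7, 22.3 and 14.5 CPM against 14.6, 5.74 and 18.9 CPM (-0.27, SE 0.48).

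Genes of the G1 phase and of the anaphase promoting complex were divided in direction under TMM scaling. Of 14 tested G1 cyclins, kinases and inhibitors, 9 were lower and 5 higher (median -0.14). Cdkn1c, an inhibitor of cyclin-dependent kinases, was at 4.68, 9.83 and 7.201 CPM in wild type against 2.32, 3.13 and 4.14 CPM in knockout libraries (-1.18, SE 0.39, adjusted p = 0.687), without overlap. Cdkn1a, the inhibitor p21 that p53 induces, was at 207.5, 131.7 and 123.0 CPM against 277.4, 196.2 and 197.1 CPM (0.54, SE 0.26, adjusted p = 0.754), with wild type library 1 in the knockout range. The cyclin E gene Ccne2 differed by -0.69 (SE 0.39) and the cyclin D gene Ccnd3 by -0.22 (SE 0.13), both without overlap. Among the 14 subunits and co-activators of the anaphase promoting complex, which are made throughout the cycle, 7 were lower and 7 higher (median 0.00), but 11 were lower and 3 higher with upper quartile factors (median -0.07) and with no scaling factors (median -0.09). Fzr1, the co-activator of late mitosis and G1, was at 53.9, 53.5 and 60.1 CPM against 69.9, 69.9 and 63.5 CPM (0.28, SE 0.13), Anapc11 differed by -0.29 (SE 0.18), Anapc15 by -0.23 (SE 0.24) and Cdc26 by -0.15 (SE 0.15). The groups did not overlap for 4 of the 14 (13.0% of all genes), with Fzr1 and Anapc2 higher and Anapc10 and Anapc11 lower in knockout gut. That count was 3 with upper quartile factors (12.4% of all genes) and 1 with no scaling factors (12.2%). In both lists 0 genes passed edgeR's test, with 1 and 0 at an unadjusted p under 0.05.

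**Figure D3:**
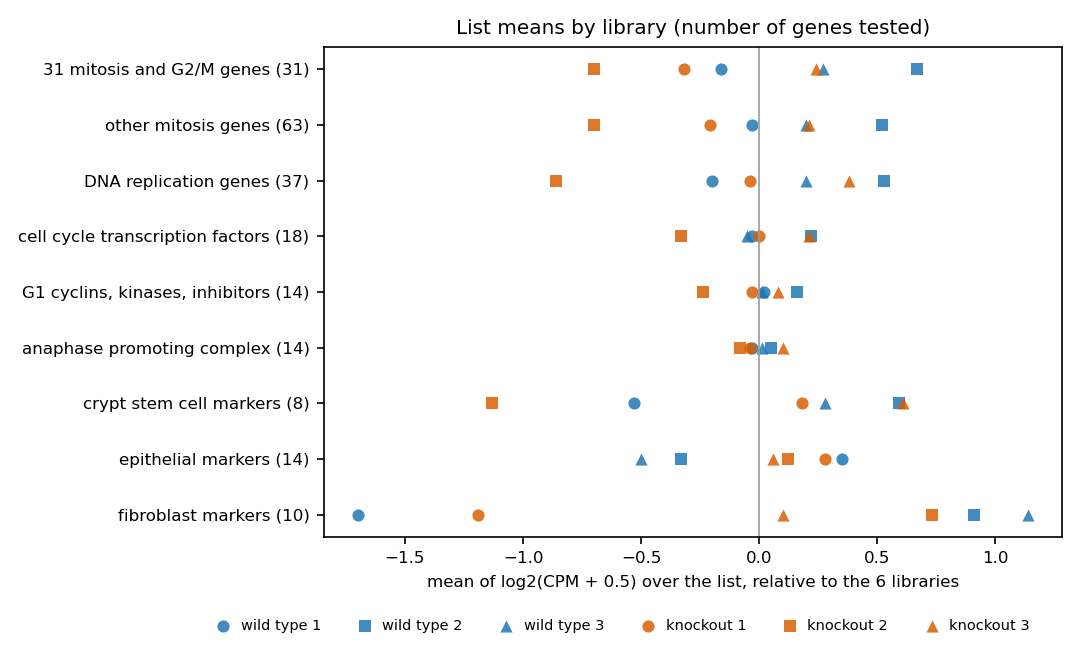
Mean of log2(CPM + 0.5) over each gene list relative to the 6 libraries (x axis, log2 units), 1 point per library, with wild type in blue and knockout in orange and the number of genes tested in brackets. The 31 mitosis genes, the other mitosis genes and the replication genes share knockout library 2 as the lowest and wild type library 2 as the highest, while the anaphase promoting complex lies near 0 in all libraries.

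Markers of the cells that could hold mitotic RNA varied between the same libraries. Of 10 crypt stem cell markers, 8 were tested (5 lower and 3 higher, median log2 fold change -0.07), with a summed level of 364.2 to 685.8 CPM in wild type against 270.4 to 496.3 CPM in knockout gut. The sum was mostly Prom1, at 237.6, 496.9 and 233.2 CPM in wild type against 239.9, 171.5 and 267 CPM in knockout libraries. Per library the 8 markers averaged -0.53, 0.59 and 0.28 in wild type against 0.18, -1.13 and 0.61 in knockout gut, so that knockout library 2 was again the lowest. Lgr5, the receptor that defines crypt base stem cells, had 3, 10 and 8 counts in wild type against 9, 0 and 28 in knockout libraries, and Olfm4 had 5, 15 and 12 against 2, 0 and 7. The 0 counts of both in knockout library 2 allow a level of up to 0.140 CPM, the level of 3 counts (counting error only). Smoc2, another crypt base gene, was at 1.496, 31.1 and 15.9 CPM against 8.13, 1.07 and 17.0 CPM. Not all of the list was low in knockout gut. Rnf43, a brake on Wnt signalling, was at 28.2, 20.8 and 23.5 CPM against 34.8, 34.03 and 36.2 CPM (0.53, SE 0.17, adjusted p = 0.683), without overlap and higher in knockout gut, and Sox9 differed by 0.29 (SE 0.23). The list median was 0.18 without knockout library 2 and 0.09 without wild type library 2. The part of the crypt markers in the differences of the mitosis genes was not tested.

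Epithelial markers had fold changes above 0 for the most part. Of 14 tested, 13 were higher in knockout gut on average (median 0.33), with a summed level of 14750 to 29900 CPM in wild type against 22370 to 26680 CPM in knockout gut, and means by library of 0.35, -0.33 and -0.50 against 0.28, 0.12 and 0.06. Against these markers the 31 mitosis genes stood at -0.51, 1.0 and 0.76 in wild type against -0.61, -0.82 and 0.18 in knockout libraries, and wild type library 1 again lay in the knockout range. Fibroblast markers (10 of 10 tested) summed to 473.5 to 4222 CPM in wild type against 630.9 to 2650 CPM in knockout gut, with means of -1.70, 0.91 and 1.14 against -1.19, 0.73 and 0.10. All 10 had fold changes below 0 (median -0.55), but 5 of 10 without wild type library 3 (median 0.01), and the median was -0.31 with limma-voom. By library, wild type library 1 and knockout library 1 were the poorest in them. Endothelial markers (9 of 9 tested, all below 0, median -0.94, or -0.36 without wild type library 3) summed to 71.6 to 338.0 CPM against 58.8 to 181.7 CPM. Smooth muscle markers (7 of 7) summed to 318.9 CPM in wild type library 1 and to 1383 to 2275 CPM in the other 5 libraries. Goblet cell markers (7 of 7) summed to 20100, 3753 and 6182 CPM against 14260, 11110 and 10250 CPM. Wild type library 1 was thus the lowest in smooth muscle and the highest in goblet cell markers, and wild type library 2 the lowest in the latter.

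B and T cell markers followed other orders of mice than the mitosis genes. The fold changes of all 9 B cell and all 9 T cell markers were below 0, with a median of -0.58 in each list. Without wild type library 3, 6 of 9 T cell markers were above 0 (median 0.17). The B cell median ran from -0.22 to -1.04 with 1 library left out and was -0.26 with limma-voom. B cell and germinal centre markers (9 of 9) summed to 264.0, 52.6 and 279.4 CPM in wild type against 181.3, 134.2 and 75.7 CPM in knockout libraries, with wild type library 2, the highest in mitosis genes, as the lowest. T cell markers (9 of 9) summed to 51.5, 29.7 and 118.6 CPM against 44.2, 66.1 and 35.2 CPM. The 7 neutrophil markers were all below 0 (median -1.26, and -0.79 to -1.64 with 1 library left out), with library means of -0.08, 0.92 and 0.55 against -0.89, -0.15 and -0.34. These means did not overlap, but wild type library 1 lay only just above knockout library 2, and wild type library 2 was again the highest. Taken singly, 2 of the 7, S100a8 and S100a9, parted the groups, where 13.0% of all genes did in either direction and 4.27% with lower levels. The sum of the 7, 1298, 941.0 and 488.0 CPM against 691.4, 681.7 and 613.4 CPM, was mostly Ly6g, which overlapped. S100a9, an abundant neutrophil protein gene, was at 28.4, 40.6 and 28.6 CPM against 6.43, 9.48 and 9.81 CPM (-1.92, SE 0.26, adjusted p = 0.615), without overlap. After adjustment edgeR's test called 0 of the 7 markers, against 0% of all genes, while DESeq2 called 1, against 0.824%. The 8 macrophage markers were all above 0 (median 0.30), but 7 of 8 were below 0 without knockout library 2 (median -0.53) and 5 of 8 without wild type library 1 (median -0.09). Squamous markers, of the lining of skin, mouth and anal canal, had 3 of 6 members tested and summed to 12.8, 37.8 and 17.3 CPM in wild type against 4.73, 2.24 and 8.03 CPM in knockout libraries. All 3 were lower in knockout gut (median log2 fold change -2.23, and -0.90 without wild type library 2). In edgeR's test 2 had an unadjusted p under 0.05 with a lower level, where 2.30% of all genes did, and 0 passed after adjustment. DESeq2 called 1 of the 3, against 0.824% of all genes. Their library means of 0, 1.94 and 0.50 against -0.87, -1.41 and -0.15 did not overlap. The order of mice within each group was that of the mitosis genes. Taken singly, 1 of the 3, Krt13, parted the groups, where 13.0% of all genes did in either direction and 4.27% with lower levels. Trp63, which defines squamous basal cells, had 1 count in wild type library 2 and 0 in the other libraries. The part of epithelium, stroma, smooth muscle, immune cells and squamous lining in the differences of the mitosis genes was not tested.

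The size of the difference rested on single mice. Leaving out each library in turn gave medians for the 31 genes of -0.28 to -0.81. Without wild type library 2 the median was -0.28 and 29 of the 31 were below 0, and without knockout library 3 or wild type library 1 it was -0.81 and -0.75. In both of the latter cases 23 of the 31 genes no longer overlapped between groups, but so did 23.8% and 47.3% of all genes, and edgeR's test called 0 of the 31, with a smallest adjusted p of 0.0948 for Cenpe without wild type library 1. Over all 14 alternatives of scaling, filter, tool, block and libraries, 0 of the 31 genes passed an adjusted p under 0.05.

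**Figure D4:**
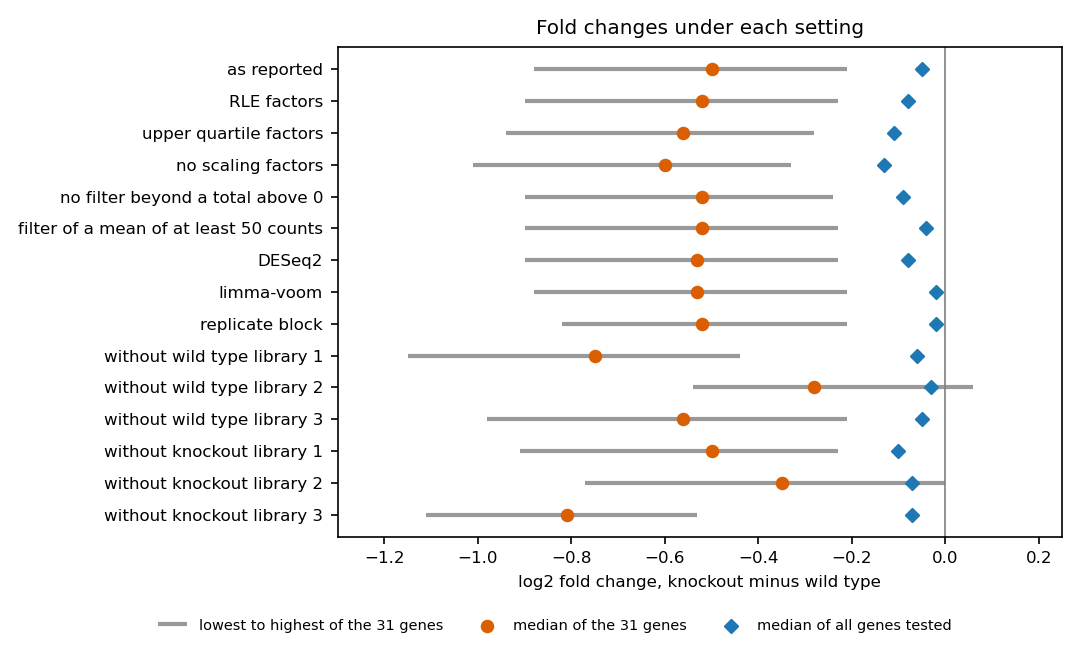
Log2 fold change (x axis, knockout minus wild type) under each setting (y axis), with the median of the 31 genes as a circle, their lowest and highest value as a line and the median of all genes tested as a diamond. The median of the 31 lies below 0 in each setting, and is nearest 0, at -0.28, without wild type library 2 and farthest, at -0.81 and -0.75, without knockout library 3 or wild type library 1.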

How the data were processed

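Intestinal RNA of 3 wild type and 3 knockout mice was taken up in TRIzol and cleared of DNA by DNase I before TruSeq library preparation, per the labels' protocols. Alignment tool and build were TopHat2 2.0.0 and mm10, per the submitters' processing notes, while the sources used here name no counting program, annotation or strand setting. The authors deposited an estimated count per gene for 56362 features (12.4% to 14.8% of them fractional in a library) and a gene length in bases. Counts were rounded to whole numbers, and no 2 libraries of a group were copies (chi-square per degree of freedom 33.8 to 247). Titles gave each sample its group and number.

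Genes kept by filterByExpr (minimum count 10) numbered 16732. They were tested with edgeR 4.0.16's quasi-likelihood test in R 4.3.3, with TMM factors and no block, and p-values were adjusted over all genes by the Benjamini-Hochberg method with a threshold of 0.05. SEs are the fold change over the square root of F. DESeq2 1.42.0 and limma-voom (limma 3.58.1) were alternatives, with other scalings, other filters, a replicate block and each library left out. CPM uses TMM-scaled totals, and library means of lists use log2(CPM + 0.5). All 31 genes passed the filter, so the exact permutation test planned for genes below it was not needed. The edgeR, DESeq2 and limma-voom fits were tested on simulated counts for all libraries and the genes kept by the filter. The replicate block, the other scalings and filters and the fits with a library left out were not simulated. The 31 genes, the other lists and the tests were chosen with earlier results of these data known. All 31 are named, and of each other pathway list the 4 genes of smallest p, except 1 gene that is not reported here. Any other gene was chosen after its values were seen. Positions are from GENCODE vM21 (GRCm38, the assembly of mm10), promoters from RefSeq (GRCm38.p6).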

Additional observations from a re-analysis of the deposited data

How the results depend on the processing

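Under all 14 alternatives the median of the 31 mitosis genes was below 0 and 0 of them were called, with medians from -0.28 to -0.81 when 1 library was left out and from -0.52 to -0.60 otherwise. Of 434 values of single mitosis genes under alternatives, 432 kept their sign, and the exceptions were Anln at 0.02 and Top2a at 0.06 without wild type library 2, from -0.80 and -0.53 without knockout library 3. Over all genes 0 were called by edgeR, 127 by DESeq2, 2 by limma-voom and 3 with no filter on low counts. Of the 31, the groups did not overlap for 3 with RLE factors, upper quartile factors or DESeq2 (12.6%, 12.4% and 12.6% of all genes), for 2 with no filter or with a mean of at least 50 counts (9.72% and 13.5%), for 0 with no scaling factors (12.2%), and for 1 to 23 with 1 library left out (16.1% to 47.3%). Hjurp was at -0.02 with RLE factors and DESeq2, -0.06 with upper quartile and -0.03 with no scaling factors, -0.01 with both other filters, -0.09 and -0.08 without wild type library 2 or 3, and -0.03 and -0.13 without knockout library 1 or 3, and 0.19 without wild type library 1. Mybl2 was at 0.06 and 0.05 without wild type library 2 or knockout library 2, and at -0.63 without knockout library 3. The cause of these moves was not tested. With the replicate block the median of the 31 was -0.52, with 0 called and 0 at an unadjusted p under 0.05. Whether the replicate numbers pair the mice was not settled. Libraries of the same number deviated from their group means with correlations of 0.48, -0.14 and 0.01 over all genes, and those of different number with -0.55 to 0.43. These correlations cannot decide it, since deviations of 3 libraries from their own mean are tied to each other. With 3 mice per group precision was limited, and 28 of the 31 fold changes exceeded 1 SE while 6 exceeded 2 SE.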
